A study of Drosophila melanogaster with 3 samples.

Results

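The peaks described here lie in the outermost 1 Mb of 4 chromosome arms of Drosophila melanogaster, on the side of the telomere. A peak belonged to this set when its midpoint lay in the first 1 Mb after the first peak start of 2L, 3L or X, or in the last 1 Mb before the last peak end of 3R, so that position alone chose the members. In all, 260 of the 7579 peaks of the list (3.43%) met this rule, with 65 on 2L, 101 on 3L, 51 on 3R and 43 on X. The outermost peak marks the end of each arm here, and its distance from the telomere itself was not measured. Arm 2R and chromosome 4 are outside the rule.

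The peaks come from chromatin immunoprecipitation with sequencing (ChIP-seq) of flies labelled 3dFemale from the source 7T, in which the sample title names a cad-GFP transgene. The antibody, labelled NWG-GFP, recovers the tagged Caudal protein with the chromatin around it. The ChIP sample has 1 peak list for both of its titled replicates, and the 2 input samples, labelled with the same stage and source, were not analysed here. The growth text of the labels names y w, VK33 flies and describes embryo collection, which goes against the stage label. The sources used here do not give the driver of the transgene, the tissue or whether animals were pooled.

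Caudal is a homeodomain transcription factor that patterns the posterior of the embryo and acts later in the intestine. Drosophila telomeres are not built from telomerase repeats but from the retrotransposons HeT-A, TART and TAHRE, followed inward by repeated subtelomeric sequence and then by unique, gene-bearing chromatin. Genes placed next to the repeats can be silenced, which is known as telomere position effect. The tip of the X carries the achaete-scute complex, whose basic helix-loop-helix proteins Achaete, Scute, Lethal of scute and Asense direct the choice of neural precursors.

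With 1 list and no replicate, no difference below has a test, and how deeply the libraries were sequenced is unknown. Each stretch is set instead against the other complete 1 Mb windows of its own arm, whose mean and standard deviation (SD) show how much such windows vary, and these windows are not replicates. Intervals are exact 95% binomial intervals, which cover counting error only and treat peaks as independent, although neighbouring peaks are not. Those of density ratios use the counts of both parts. Those for width, score and the share of close pairs cover the stretch only and take the value of the rest as fixed. The score is that of the peak caller on the authors' scale, which the file does not define, and serves only to order and describe peaks within the list.

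In all 4 stretches the median peak was wider than in the rest of the arm. The median width was 1946 bp on 2L against 1309 bp in the rest of that arm, a ratio of 1.49 (interval 1.21 to 1.94). On 3L it was 1700 bp against 1287 bp, a ratio of 1.32 (interval 1.06 to 1.48). On X it was 1675 bp against 1403 bp, a ratio of 1.19, and on 3R 1509 bp against 1361 bp, a ratio of 1.11. The intervals of the last pair of ratios, 0.935 to 1.48 and 0.899 to 1.24, include 1. The median on X was 2177 bp in the outer 500 kb (16 peaks) and 1391 bp in the inner 500 kb (27 peaks). On 3R these medians were 1694 bp and 1097 bp, so that on both arms the inner value was below that of the rest. The direction on 3R did not hold under other settings, with ratios of 0.981 for a stretch of 2 Mb, 0.972 after merging across gaps of 500 bp or less and 0.834 among peaks at or above the median score of the list. Among peaks of such scores the ratio was 1.09 on 3L (interval 0.945 to 1.29) and 1.04 on X (interval 0.690 to 1.59).

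The window values show how far these widths stood from the ordinary range of each arm. The median width of the 2L stretch exceeded that of 20 of the 21 other windows of 2L, whose mean was 1335 ± 255 bp (SD). That of the 3L stretch exceeded all 22 others (1279 ± 209 bp), and that of X exceeded 19 of 21 (1418 ± 219 bp). On 3R it exceeded 20 of 26 (1354 ± 222 bp). The excess over the mean of the other windows was thus 2.40 SD on 2L, 2.01 SD on 3L, 1.17 SD on X and 0.701 SD on 3R.

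**Figure D1:**
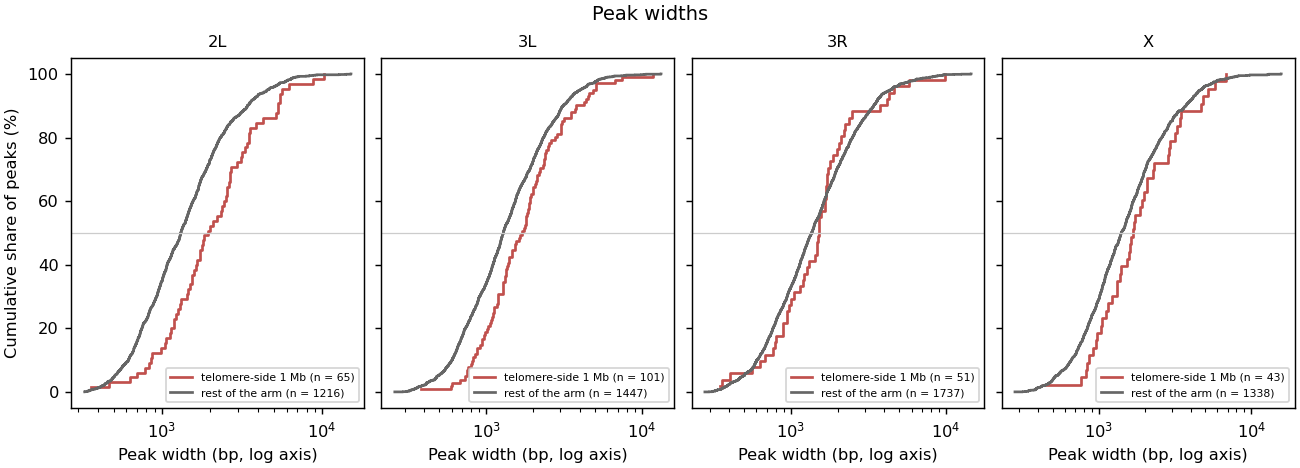
Cumulative share of peaks (vertical axis, %) by width (horizontal log axis, bp) on each arm, for the telomere-side 1 Mb (red) and the rest of the arm (grey). The red curve runs to the right of the grey one over most of its course on 2L, 3L and X, while on 3R the curves cross near the middle.

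On 2L and 3L the shift came with a lower share of narrow peaks and a higher share of broad ones. On 3R and X the shares differed in the same direction, but neither kind had more than 5 peaks there. No interval was computed for these shares. Peaks of 4 kb or more made up 6.68% of the whole list, and 30 of the 260 members (11.5%) were that wide. Such peaks were 15.4% of the members on 2L (10 of 65) against 6.58% in the rest of that arm, 9.90% against 5.11% on 3L, 9.80% against 5.99% on 3R and 11.6% against 8.30% on X. Peaks narrower than 600 bp made up 8.66% of the list, and 9 members (3.46%) were that narrow. They were 2 of 65 on 2L (3.08% against 9.46% in the rest), 2 of 101 on 3L (1.98% against 9.95%), 4 of 51 on 3R (7.84% against 9.61%) and 1 of 43 on X (2.33% against 7.40%).

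Peaks were also compared at like score, because width and score rise together. Across members Spearman's rho between score and width was 0.75 on 2L, 0.60 on 3L, 0.60 on 3R and 0.56 on X, against 0.65, 0.68, 0.65 and 0.69 in the rest of these arms. Both measures come from the same peak call. In the lowest of 4 equal classes of the list by score (50 to 101.93), members were wider at the median than the other peaks of their arm on all 4 arms, from 1.16 times on 3R (11 members) to 1.61 times on 2L (13 members). In the next class (102.01 to 198.70) the ratios ran from 1.16 on 3L (22 members) to 1.32 on 3R (15 members). In the third class (198.79 to 416.98) members were wider on 2L (1.72 times, 19 members) and 3L (1.28 times, 35 members), while the ratio was 0.990 on X (12 members) and 0.893 on 3R (10 members). In the highest class (417.06 and above) 2L alone had wider members, with 3528 bp against 2454 bp over 18 members. The ratio there was 0.975 on 3L, 0.814 on 3R and 0.878 on X.

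The number of peaks differed between the arms and had no common direction. The 3L stretch held 101 peaks against 64.9 per Mb in the rest of 3L, a ratio of 1.56 (interval 1.26 to 1.90), and that of 2L held 65 against 55.6 per Mb, a ratio of 1.17 (0.896 to 1.501). The stretch of X held 43 against 62.6 per Mb, a ratio of 0.687 (0.495 to 0.931), and that of 3R held 51 against 64.6 per Mb, a ratio of 0.790 (0.586 to 1.04). For all 4 arms together, 4.15% of the span held 4.33% of the peaks.

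Only the 3L stretch lay beyond the other windows of its arm in peak number. Its 101 peaks stood above the 22 other windows (65.6 ± 17.1, SD, highest 94) by 2.07 SD. The 2L stretch had more peaks than 13 of its 21 other windows (57.2 ± 19.98), and the 3R stretch more than 6 of 26 (64.4 ± 16.9). The X stretch had more than 3 of 21 (63.5 ± 17.8), a value 1.15 SD below their mean. Over 2 Mb a pair of the density ratios turned, to 0.970 on 2L and 1.01 on X. After merging, the X ratio was 0.767 (0.542 to 1.05). Among peaks at or above the median score of the list it was 0.778 (0.509 to 1.14). Both intervals include 1.

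**Figure D2:**
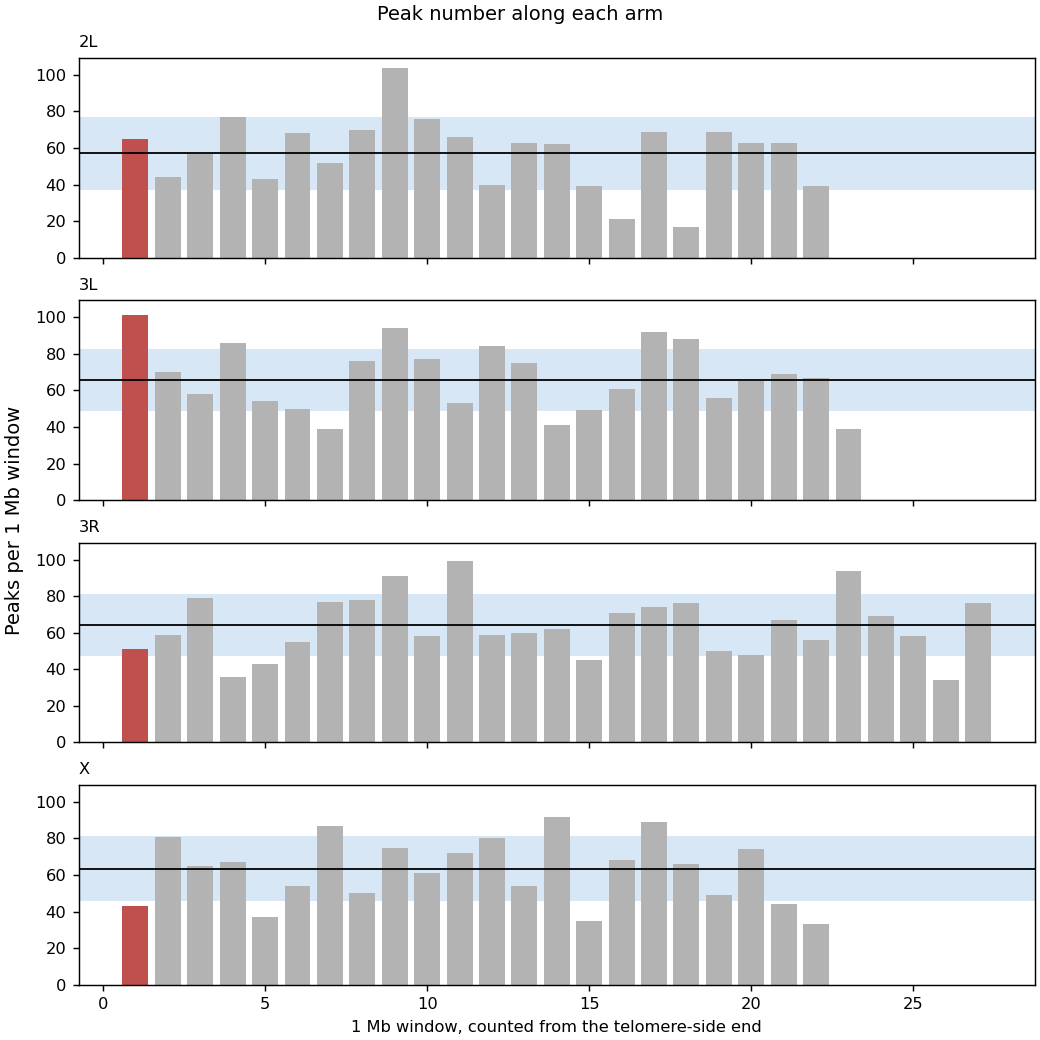
Number of peaks (vertical axis) in complete 1 Mb windows counted from the telomere-side end of each arm (horizontal axis), with the first window in red and the mean and 1 SD of the other windows as a line and a band. The first window of 3L, with 101 peaks, is the tallest of its arm, while those of 2L (65) and 3R (51) lie within the band and that of X (43) lies below it.

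Width and number together set how much of a stretch lay inside peaks. On 3L peaks covered 21.2% of the stretch, against 10.8% of the rest of the arm, and none of the 90 other windows of the 4 arms reached that share (highest 20.6%). On 2L they covered 16.5% against 9.65%, more than 20 of the 21 other windows of that arm. On X they covered 9.25% against 11.6%, and on 3R 9.36% against 11.5%, so that there the covered share was lower although the median peak was wider.

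Scores of the stretches lay near those of the rest of the arms. On 2L the median score was 229, with 193.5 in the rest of the arm, and on 3L it was 220.2, with 196.2 in the rest. On 3R the medians were 197.0 and 197.5, and on X they were 263 and 231. The ratios for 2L, 3L, 3R and X, of 1.18, 1.12, 0.997 and 1.13, all have intervals that include 1, the widest being 0.762 to 1.91 on X. Scores of 1000 or more were held by 6.77% of the list and by 19 of the 260 members (7.31%). By arm these were 8 of 65 on 2L (12.3%, interval 5.47 to 22.8%, against 5.92% in the rest), 3 of 101 on 3L (2.97%, 0.617 to 8.44%, against 6.63%), 3 of 51 on 3R (5.88%, 1.23 to 16.2%, against 6.79%) and 5 of 43 on X (11.6%, 3.89 to 25.1%, against 8.37%). The 3L stretch was the fullest in peaks and had the smallest share of high scores, but each of these intervals includes the share in the rest of its arm.

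Within the stretch of 2L the peaks stood in blocks. The outermost was 2L 5546 to 6009, 464 bp wide with a score of 108.45, and 65.4 kb without a peak separated it from the next, 2L 71376 to 74505, which was 3130 bp wide and scored 1058.08. The step of 100 to 200 kb from the end was the fullest, with 16 peaks, and that of 800 to 900 kb followed with 12. The steps of 600 to 700 kb and 900 to 1000 kb were empty. The outer 500 kb held 45 peaks and the inner 500 kb 20, so that the density ratio of the outer 500 kb alone was 1.63.

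The strongest member of the whole set was on 2L. The peak at 476619 to 486920 was 10302 bp wide and had a score of 3145.59, above the value of 3100 at which the scores of the list pile up. The second, at 468349 to 473631, scored 1709.51 and ended 2987 bp before it, and on its other side a peak of 2194 bp with a score of 88.08 began after 135 bp. The third, at 160158 to 162701 with 1532.91, lay 58 bp from a peak of 5499 bp that scored 444.77. The fourth, at 865217 to 868737, scored 1249.93. The fifth, at 244127 to 252918, was also the second widest (8792 bp, score 1124.57), and its nearest neighbour lay 19006 bp away. The narrowest member was 359 bp wide, at 602626 to 602984, with a score of 69.65.

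The longest run of 2L, counted as neighbours with midpoints no more than 5 kb apart, had 6 peaks from 838245 to 858590 with scores of 51.86 to 1085.73. Its longest interval without a peak ran from 602985 to 789656 (186.7 kb), and 13 intervals in the rest of the arm were longer. A further 174.0 kb without a peak, from 874554 to 1048542, lay across the 1 Mb edge. The last member inside that edge was 870252 to 874553 (4302 bp, score 419.29) and the first peak outside was 1048543 to 1049283 (741 bp, score 376.36).

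The stretch of 3L was filled throughout. Each of its 10 steps of 100 kb held peaks, from 5 to 17, while 10.4% of the steps in the rest of 3L were empty. The fullest steps lay at 700 to 800 kb from the end, with 17 peaks, and at 500 to 600 kb, with 15. The outermost peak was 42707 to 43431 (725 bp, score 105.45), and the next began after 299 bp. The longest interval without a peak was 66.9 kb, from 891470 to 958392, and 69 intervals in the rest of the arm were longer.

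The 3 members of 3L with a score of 1000 or more all lay in the inner 500 kb, which held 58 of the 101 members. They were 783267 to 785324 (2058 bp, 1422.34), 780148 to 782468 (2321 bp, 1173.99) and 738374 to 740178 (1805 bp, 1033.78), of which the first pair lay 798 bp apart. The next were 202147 to 207227 (5081 bp, score 877.93) and 128013 to 130090 (2078 bp, score 859.72). Both leading peaks belonged to the longest run, 6 peaks from 773276 to 789176 with scores down to 51.76, the last of which was also the narrowest member at 382 bp. The widest member, 541763 to 553566, spanned 11804 bp with a score of 248.24, and the second widest, 344143 to 351617, spanned 7475 bp with 303.65. The last member inside the edge was 1033926 to 1035481 (score 325.89), and the first peak outside was 1084229 to 1084580 (score 76.23).

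On 3R the peaks fell into groups set apart by empty steps. The outermost peak was 27893104 to 27894809 (1706 bp, score 192.88), followed inward by 27878228 to 27880701 (2474 bp, score 160.76). The step of 100 to 200 kb was empty, within an interval of 172.4 kb without a peak from 27638768 to 27811138, and so was that of 500 to 600 kb. The fullest step, 300 to 400 kb from the end, held 12 peaks, and 3 steps held 8 each (400 to 500, 600 to 700 and 800 to 900 kb). The step of 900 to 1000 kb held a single peak, 26953079 to 26953426, which was the narrowest member at 348 bp and the last inside the edge (score 61.72). The first peak outside, 26883940 to 26887375, scored 701.58.

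The 3 members of 3R with a score of 1000 or more lay within the step of 800 to 900 kb (8 of 51 members). Of these, 27046229 to 27051990 (5762 bp, 1349.07) and 27041148 to 27045770 (4623 bp, 1169.00) were 458 bp apart, and 27022283 to 27023561 (1279 bp) scored 1115.55. The next were 27634601 to 27636646 with 899.15 and 27600930 to 27605064 with 720.82. The widest member, 27427738 to 27437635, spanned 9898 bp and scored 600.88. The 31 peaks of the outer 500 kb had a median width of 1694 bp and the 20 of the inner 500 kb one of 1097 bp. The longest runs on 3R had only 3 peaks, and there were 4 of them, whereas 14.0% of the peaks in the rest of 3R stood in runs of 5 or more.

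The tip of the X was sparse. Its outer 500 kb held 16 peaks and its inner 500 kb 27, and no step of 100 kb held more than 8 (600 to 700 kb), with 7 at 300 to 400 kb and at 800 to 900 kb. The outermost peaks were 26721 to 27766 (1046 bp, score 122.96) and 37162 to 38836 (1675 bp, score 98.41), the only ones in the first 100 kb. The longest interval without a peak in any of the 4 stretches was here, 196.1 kb from 173843 to 369989, and it included the empty step of 200 to 300 kb. In the rest of X, 10 intervals were longer, up to 433 kb.

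All 5 members of X with a score of 1000 or more lay inward of that interval, as did most of the 43 members. Outward of it were only the 2 peaks of the first step of 100 kb and the 3 of the second. The highest score was 1809.46, at 415622 to 418488 (2867 bp), and the nearest neighbour was 10949 bp away. The peak at 649549 to 654203 (4655 bp, score 1451.76) was followed after 100 bp by one at 654304 to 660107, the second widest member (5804 bp, score 950.16). The others of 1000 or more were 689779 to 691647 (1412.21), 390120 to 394930 (1288.98) and 492081 to 494351 (1161.18). The widest member, 509988 to 516765, spanned 6778 bp but scored only 182.55, and the narrowest, 957162 to 957593, was 432 bp wide with 61.27. The last member inside the edge was 1013164 to 1015239 (score 490.42), and the first peak outside was 1027802 to 1029585 (score 212.03).

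**Figure D3:**
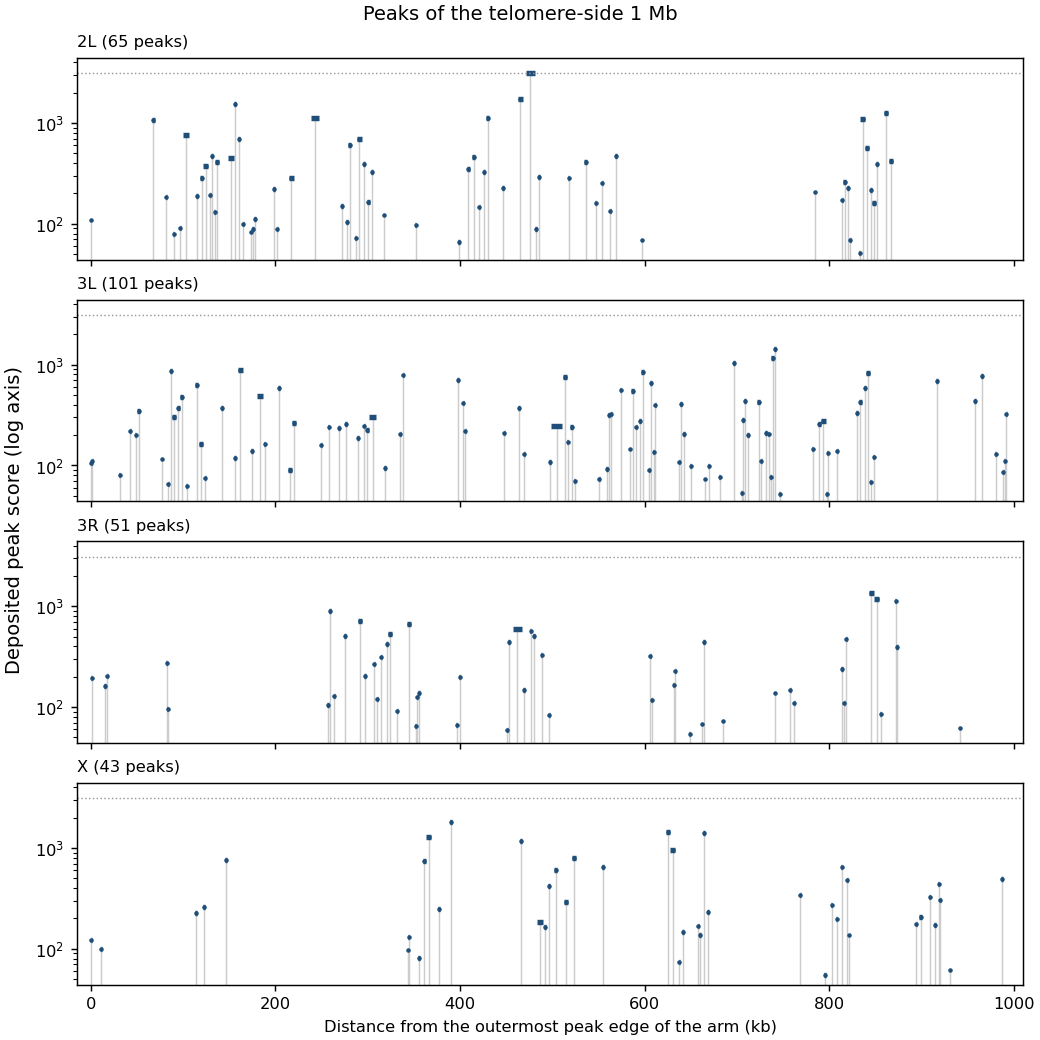
Deposited score (vertical log axis) of each member by the distance of its midpoint from the outermost peak edge of its arm (horizontal axis, kb); points are peaks, thick bars show their width to scale and the dotted line marks a score of 3100. Peaks are spread along the whole stretch of 3L, whereas 2L, 3R and X have intervals without a peak of 187, 172.4 and 196.1 kb, and a single peak, on 2L, reaches the dotted line.

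In the Release 6 gene table of RefSeq, whose coordinates belong to another assembly, the protein-coding genes y, ac, sc, l(1)sc, Pgcl and ase follow each other in this order inward from the tip of the X. The gene y is needed for black cuticle pigment, and ac, sc, l(1)sc and ase encode the proteins of the achaete-scute complex. The same table lists l(2)gl, a cell polarity gene, as the outermost protein-coding gene of 2L, and places ttk, which encodes the repressor Tramtrack, and awd, a nucleoside diphosphate kinase gene, nearer to the end of 3R than tll and zfh1. No annotation of BDGP5 was used here, so none of these genes was placed among the peaks. Whether the achaete-scute complex lies in the interval of X without peaks or beside one of its peaks was not determined.

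The share of close pairs was lower in the X stretch than in the rest of X. On 2L, 3L and 3R it was within 1 SD of the mean of the other windows. On X, 10 of 42 neighbouring pairs (23.8%, interval 12.1 to 39.5%) had midpoints within 5 kb, against 45.6% in the rest of the arm, a ratio of 0.522 (0.264 to 0.865). On 2L the share was 40.6% against 43.3%, on 3L it was 45 of 100 pairs against 47.4%, and on 3R 20 of 50 pairs against 42.4%. The share on X was below that of each of its 21 other windows (45.3 ± 6.76%, SD, lowest 35.9%) and below that of the other 90 windows of the 4 arms, of which the lowest had 30.4%. The 3 windows of X with fewer peaks, of 33, 35 and 37, had shares of 40.6%, 38.2% and 36.1%. With a neighbour distance of 10 kb the ratio on X was 0.815, and its interval included 1 (0.584 to 1.03). The parts of peak number and peak width in the share on X were not tested.

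The median distance between neighbouring midpoints was 8055 bp on X against 5661 bp in the rest of the arm. It was 7486 bp against 5872 bp on 3R, 5961 bp against 6042 bp on 2L and 5605 bp against 5358 bp on 3L. No run of 5 or more peaks was found in the X stretch, while 17.3% of the peaks in the rest of X belonged to one. Such runs held 16.9% of the members on 2L and 15.8% on 3L, against 15.8% and 18.4% in the rest. Peaks with no neighbour within 20 kb were 4 of 43 on X (9.30% against 2.91% in the rest) and 5 of 65 on 2L (7.69% against 4.52%), but 2 of 51 on 3R (3.92% against 4.09%) and 1 of 101 on 3L (0.990% against 3.52%).

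At shorter range the stretches of 2L and 3L also had few close pairs. Midpoints within 2 kb of each other made up 2 of 64 pairs on 2L (3.13% against 13.7% in the rest), 7 of 100 on 3L (7.00% against 16.1%) and 3 of 42 on X (7.14% against 14.0%), but 8 of 50 on 3R (16.0% against 12.8%). Midpoints of peaks that do not overlap cannot be closer than the mean of both widths, so that wide peaks leave fewer such pairs by construction. The part of width in these shares was not tested. Pairs whose edges lay 100 bp or less apart were 7.81% on 2L against 5.35% in the rest, 6 of 100 on 3L against 7.47%, 3 of 50 on 3R against 5.59% and 2 of 42 on X against 7.03%.

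**Figure D4:**
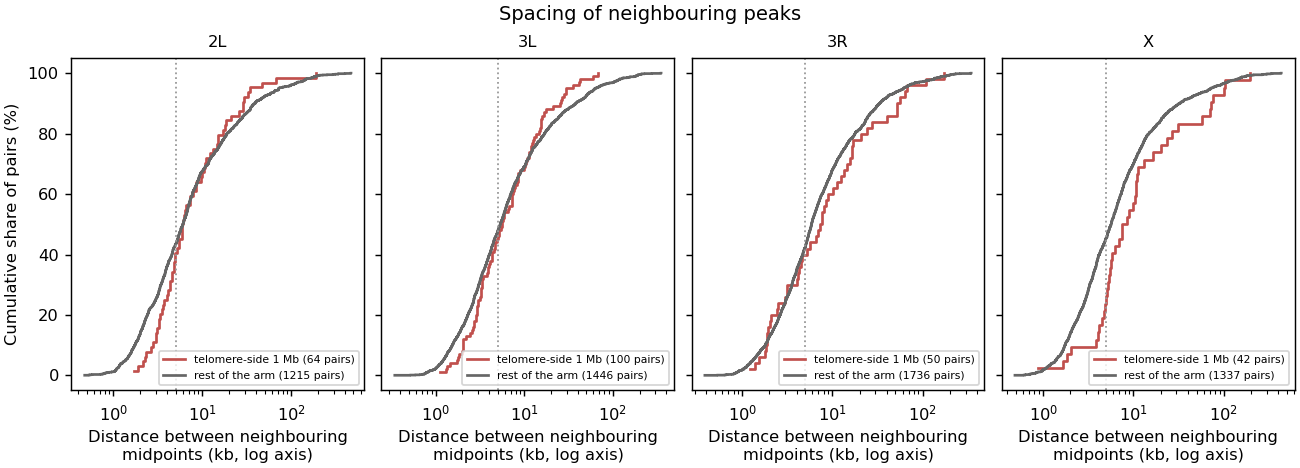
Cumulative share of neighbouring pairs (vertical axis, %) by the distance between their midpoints (horizontal log axis, kb) in the telomere-side 1 Mb (red) and the rest of the arm (grey), with a dotted line at 5 kb. At that line the curves of 2L, 3L and 3R differ by a few percentage points, while on X the red curve stands at 23.8% and the grey one at 45.6%.

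Close neighbours were described for the strong members as well. Of the 19 members with a score of 1000 or more, 9 (47.4%) had another peak within 5 kb between midpoints, against 157 of all 260 members (60.4%). By arm these were 3 of 8 on 2L (37.5%, against 56.9% of all its members) and 2 of 3 on 3L (66.7% against 66.3%). They were 2 of 3 on 3R (66.7% against 70.6%) and 2 of 5 on X (40.0% against 39.5%). These counts are too small to set the arms apart. In the rest of the 4 arms the shares were 58.3% of 398 peaks of that score and 67.9% of all 5738 peaks. By arm they were 48.6% and 66.5% on 2L, 68.8% and 71.2% on 3L, 55.9% and 65.4% on 3R and 58.0% and 68.8% on X. A lower share among strong peaks on 2L was thus not particular to its stretch. Midpoints can also lie more than 5 kb apart where the edges of wide peaks are close. The 2L peak of 10302 bp had a neighbour 135 bp from its edge that was not counted. The part of width in these shares was not tested. Steps of 100 kb without a peak were 5 of 40 in the stretches (12.5%) and 124 of 921 in the rest (13.5%). By arm the share in the rest was 16.5% on 2L, 10.4% on 3L, 12.3% on 3R and 15.0% on X. The stretches had 2, 0, 2 and 1 empty steps of 10, which is near these shares.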

How the data were processed

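The authors deposited a start, an end and a score for each peak, called with MACS per the file headers. Bowtie and the build BDGP5 are named in the submitters' processing notes. The sources used here do not give versions, settings, the use of input or any pooling of replicates. Starts are printed from 1, taking deposited starts as counted from 0, and midpoints average start and end. Arm spans ran from the first peak start to the last peak end. Computed from these were peaks per Mb, medians of width and score, covered length and the distance between neighbouring midpoints, in Python 3.11.15 with pandas 2.3.3 and SciPy 1.17.1. Ratios of density, width and score, and the intervals of density and width, were tested on simulated arms. Simulated peaks had independent positions, and widths independent of scores, unlike the deposited ones. The share of close pairs and the score intervals were not tested in this way. Pairs were counted with both peaks in the same part. Per arm, named peaks were the outermost, the 5 of highest score, the 2 widest, the narrowest and those beside the 1 Mb edge, with the fullest and empty steps, longest interval and longest run. The second peak from each end was added after seeing the data. Members and rules were chosen with earlier results of these data known. Depth is unknown. No sequence is shown, since no BDGP5 genome was used here.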

Additional observations from a re-analysis of the deposited data

How the results depend on the processing

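For 4 ratios on 4 arms, 92 alternative values were computed, and 83 stayed within the exact 95% interval of the reported ratio. With a stretch of 0.5 Mb the density ratio of 2L was 1.63, the width ratio of 3R 1.25 and of X 1.55, and the 5 kb ratio of 3L 0.598. With 2 Mb the density ratio of X was 1.01. Among peaks at or above the median score of the list, the width ratio of 3R was 0.834 and the 5 kb ratio of 3L 1.29. With a neighbour distance of 2 kb the ratio was 0.227 on 2L and 0.434 on 3L. In these 9 cases the cause was not tested. In 12 of the 92 the ratio crossed 1, of which 6 were for a stretch of 2 Mb. The width ratios of 2L, 3L and X and the density ratio of 3L stayed above 1 in the alternatives run for them. Among peaks at or above the median score the width ratio was only 1.09 on 3L (0.945 to 1.29) and 1.04 on X (0.690 to 1.59). After merging it was 1.17 (0.887 to 1.40) and 1.04 (0.811 to 1.40). With 0.5 Mb the 3L intervals included 1 for width (0.982 to 1.83) and density (0.938 to 1.76). The 5 kb ratio of X stayed below 1 (0.413 to 0.815). Its interval included 1 with 0.5 Mb, among the higher scores, after merging and with 2 or 10 kb. Leaving out a replicate could not be done with 1 list. No paired analysis was possible because the ChIP sample has a single list and no input values were analysed here. The unknown depth limits what an interval without peaks can show.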
